A study of Rattus norvegicus with 6 samples.

Results

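The genes described here handle heme, iron and metal ions or defend cells against oxidants, and they were chosen by name. A probe was taken when its RefSeq accession, with the version removed, belonged to 1 of 10 rat genes: Hmox1, Mt1, Nqo1, Gclc, Gclm, Txnrd1, Fth1, Gpx1, Gpx3 and Slc40a1. All 10 genes had a probe, 14 probes in all among 41012 gene probes. Of the 10, 9 were measured above background and tested, among 21847 genes or unnamed probes. Fth1 was at the upper limit of the scanner on every array, and Gclm was too dim to test.

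The cells came from the bone marrow of male rats aged 8 weeks. They were cultured under osteogenic conditions until day 10, when RNA was taken. Cultures were either exposed to low-intensity pulsed ultrasound (LIPUS), sound waves that act on cells as a mechanical stimulus, or left without it. There were 3 LIPUS samples and 3 control samples, each on 1 single-colour Agilent array with Cy3-labelled RNA. Whether the samples of a group came from separate animals or separate cultures is not given in the sources used here, so p-values measure only the spread between these samples, which may be technical.

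Heme is a toxic, iron-carrying ring that cells break down when they no longer need it. Heme oxygenase opens the ring and frees iron, which ferritin stores and ferroportin exports. Metallothioneins bind zinc and other metal ions, and glutathione, thioredoxin and their reductases and peroxidases remove peroxides. Many of these genes share a regulator, the transcription factor NRF2, which binds the antioxidant response element. In bone marrow, macrophages take up old red cells and recycle the iron of their hemoglobin.

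Levels are log2 brightness of a probe after background correction, relative to the 75th percentile of the same array, so 0 is a fairly bright probe and 1 unit is a doubling. A level of one probe cannot be set against that of another probe. Changes are LIPUS minus control on this log2 scale, with the standard error (SE) of limma's moderated test. A gene was called when its Benjamini-Hochberg adjusted p, taken over all 21847 tests, was under 0.05.

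Above background were 56.4%, 55.3% and 61.9% of probes on LIPUS arrays 1 to 3, against 55.2%, 53.5% and 61.3% on control arrays 1 to 3. The scanned grids of control 1 and control 2 were tilted by 9.25 and 9.43 position units per 100 columns, and those of the other 4 arrays by 5.22 to 6.01. The lowest scan positions were 18270, 34010 and 49750 for LIPUS 1 to 3 and 2525 for control 3, while control 1 and control 2, at 33985 and 49715, nearly repeated those of LIPUS 2 and LIPUS 3. The labels give no slide, and these features of the scans are the basis on which one was inferred, with control 3 as the one control array on the slide of the LIPUS arrays. For that reason differences from control 3 alone are given beside the genes described.

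Among the 9 tested genes, Hmox1 and Mt1 were called lower in LIPUS samples and Gpx3 was called higher. That is 3 of 9, where 6.63% of all tests were called, 3.74% lower and 2.89% higher. The 10 genes were listed with earlier results of these arrays known. Of the 8 genes below the scanner limit, 4 had a change under 0 and 4 above it as scaled here. With scaling on the spike-in controls, which moved the median of all genes by −0.35, Gclc (−0.17) and Slc40a1 (−0.21) were under 0 too, and 4 genes were called lower and none higher. The groups did not overlap for 5 of the 8, against 27.2% of all tests.

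**Figure D1:**
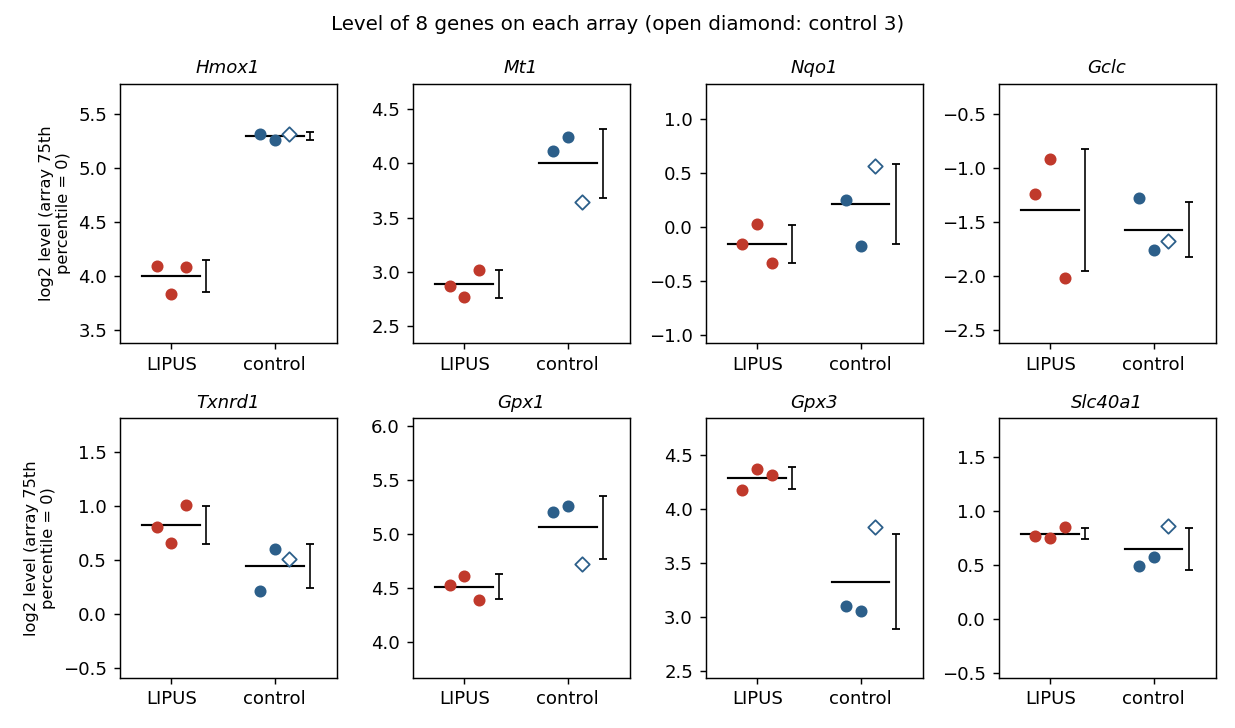
Log2 level of 8 genes on each array, with the array's 75th percentile at 0. Red points are LIPUS arrays, blue points control arrays, and the open diamond is control 3. Horizontal lines are group means and the bars beside them ± 1 SD (n = 3). Each panel spans the same height. Hmox1 and Mt1 are lower on every LIPUS array than on any control array, and Gpx3 is higher.

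Hmox1 (NM_012580) encodes heme oxygenase 1, the inducible enzyme that degrades heme to biliverdin, carbon monoxide and iron. Its level was 4.09, 3.83 and 4.09 in LIPUS samples 1 to 3, against 5.32, 5.26 and 5.32 in control samples 1 to 3. Every LIPUS array was more than 1 log2 unit below every control array, and the control arrays lay close together. The mean was 4.004 ± 0.15 in LIPUS samples and 5.30 ± 0.03 in control samples (SD, n = 3 each). Hmox1 fell by 1.29 ± 0.16 (SE), which is 2.45-fold lower (limma adjusted p = 0.00187). The RNA is of mixed cells, so fewer cells of a type and less RNA per cell cannot be told apart.

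The Hmox1 probe is printed 10 times on each array, which gives a view of the error of single spots. Median spot brightness was 14833, 10131 and 12891 scanner units on the LIPUS arrays, against 37290, 28464.5 and 41611.5 on the control arrays. These readings are not scaled, and the 75th percentile of the LIPUS arrays differed from that of the control arrays by −0.24 log2 units. The 10 spots of an array are repeats of 1 sample. Spots of the 3 LIPUS arrays ran from 8010 to 16228, and those of the 3 control arrays from 20465 to 52770. No LIPUS spot was as bright as any control spot, and none reached the limit of 65535. Within an array the 10 spots had an SD of 0.17 to 0.24 log2 units. The LIPUS mean lay 1.31, 1.25 and 1.31 below controls 1, 2 and 3, so control 3 gave a difference like that of the others. Of 20 alternatives 1 ended the call, a fit of the LIPUS arrays against control 3 alone (−1.31, adjusted p = 0.0935).

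**Figure D2:**
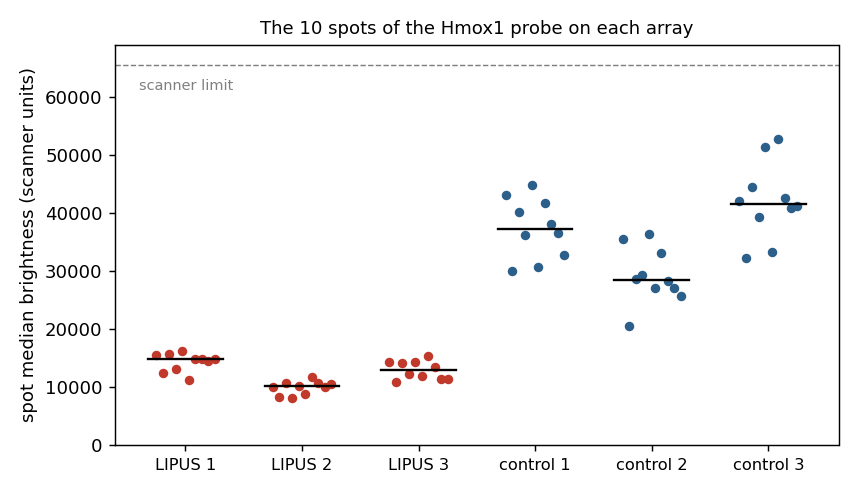
Brightness of each of the 10 Hmox1 spots on each array in scanner units (red, LIPUS; blue, control), with the median of each array as a black line and the scanner limit of 65535 dashed. The brightest LIPUS spot (16228) is below the dimmest control spot (20465), in brightness that is not scaled between arrays.

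Mt1 (NM_138826) encodes metallothionein 1, a small cysteine-rich protein that binds zinc and other metal ions. Its level was 2.87, 2.76 and 3.02 in LIPUS samples 1 to 3, against 4.12, 4.25 and 3.64 in control samples 1 to 3. All LIPUS arrays were below all control arrays, and control 3 was the lowest of the controls. The mean was 2.88 ± 0.13 in LIPUS samples and 4.004 ± 0.32 in control samples (SD, n = 3 each). Mt1 fell by 1.12 ± 0.20 (SE), or 2.17-fold (limma adjusted p = 0.00952). The call held with each array left out in turn, but not with plain background subtraction (adjusted p = 0.0566). Against control 3 alone the difference was −0.76, and with the inferred slide as a block the change was −0.76 and not called (adjusted p = 0.127).

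The promoter of Mt1 is shown because metallothionein genes are known to respond to metals through repeated short elements near their start. The RefSeq promoter table used here (GRCr8) gave a window for 8 of the 10 genes, from 250 bases before to 50 bases after the start. Hmox1 and Fth1 had no window, so their promoters were not searched for any motif. The window of Mt1 lies at chr19:10832926-10833225, minus strand. Capitals mark the core of the metal response element (TGCACNC or TGCGCNC, either strand), the core of the antioxidant response element (TGACNNNGC, either strand) and the TATA box (TATAAA, either strand).
Mt1 promoter: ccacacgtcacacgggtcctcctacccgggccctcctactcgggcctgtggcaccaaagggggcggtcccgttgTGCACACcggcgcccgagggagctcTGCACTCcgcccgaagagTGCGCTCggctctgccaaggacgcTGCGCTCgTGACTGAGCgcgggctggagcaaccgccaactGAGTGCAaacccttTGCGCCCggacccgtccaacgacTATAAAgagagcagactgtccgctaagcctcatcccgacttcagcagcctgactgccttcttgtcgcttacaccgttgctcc

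The window of Mt1 holds 6 metal response cores, 1 antioxidant core and 1 TATA box, and no match overlaps another. The metal cores begin between bases −176 and −55 of the start, and the TATA box spans bases −32 to −27. Among 33469 rat promoter windows of 300 bases, 24.2% hold at least 1 metal core, 12.1% an antioxidant core and 14.2% a TATA box. A match is a run of letters and does not show that a factor binds there. Of the 8 genes with a window, Mt1 and Gclm hold a metal core, Gclm with 2 matches.

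The antioxidant core was found in Mt1, Gclm and Txnrd1, 3 of the 8, and for Txnrd1 in 1 of its 2 windows. Sequence outside the windows was not searched, so a gene without a match may hold one further away. The 21 bases around each match are shown on the strand of the motif, with the core in capitals. The sites lie at chr19:10833062-10833082 (minus strand), chr2:213031957-213031977 (minus strand) and chr7:22755968-22755988 (plus strand) of GRCr8.
Mt1: cgctcgTGACTGAGCgcgggc
Gclm: agacaaTGACTAAGCagaaac
Txnrd1: tcagaaTGACAAAGCaaaaat

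Of these 3 genes Mt1 was called lower, Txnrd1 was not called and Gclm could not be tested.

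Gpx3 (NM_022525) encodes the secreted, selenium-containing glutathione peroxidase of plasma. Its level was 4.18, 4.37 and 4.31 in LIPUS samples 1 to 3, against 3.10, 3.05 and 3.83 in control samples 1 to 3. The groups did not overlap, but control 3 lay closer to the LIPUS arrays than to the other controls. The mean was 4.29 ± 0.10 in LIPUS samples and 3.33 ± 0.44 in control samples (SD, n = 3 each). Gpx3 rose by 0.96 ± 0.22 (SE), or 1.94-fold (limma adjusted p = 0.0331).

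In scanner units the Gpx3 spot read 15115, 14327 and 15130 on the LIPUS arrays, against 7908, 6207 and 14867 on the control arrays. Before scaling, control 3 was thus as bright as the LIPUS arrays. The LIPUS mean was 1.19, 1.23 and 0.46 above controls 1, 2 and 3. The call ended when any array other than control 3 was left out (adjusted p from 0.0771 to 0.125), and it had an adjusted p of 0.00759 without control 3. With slide as a block the change was 0.46 (adjusted p = 0.295). The authors' deposited value table gave 1.00 for the same probe (adjusted p = 0.0893 over the same genes).

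The promoter window of Gpx3, chr10:39529085-39529384 on the plus strand of GRCr8, is shown as that of the other called gene with a window. It holds none of the 3 motifs, so it has no capitals. Most rat windows lack each motif, since 24.2% hold a metal core, 12.1% an antioxidant core and 14.2% a TATA box. Whether the motifs bear on the change of Mt1 or Gpx3 was not tested.
Gpx3 promoter: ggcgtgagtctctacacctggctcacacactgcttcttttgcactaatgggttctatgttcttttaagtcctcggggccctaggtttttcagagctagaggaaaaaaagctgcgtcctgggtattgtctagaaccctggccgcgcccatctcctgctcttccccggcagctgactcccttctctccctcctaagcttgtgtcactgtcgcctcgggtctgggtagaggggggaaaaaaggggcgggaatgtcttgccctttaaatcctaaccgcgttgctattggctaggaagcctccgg

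Gpx1 (NM_030826) encodes the glutathione peroxidase of the cytosol. Its brighter probe had a level of 4.53, 4.62 and 4.39 in LIPUS samples 1 to 3, against 5.20, 5.26 and 4.73 in control samples 1 to 3. The groups did not overlap, and again control 3 lay nearest to the LIPUS arrays. The difference was −0.55 ± 0.19 (SE) with a 95% interval from −0.97 to −0.13, and it was not called (limma adjusted p = 0.121). The second Gpx1 probe gave −0.38 ± 0.16 (adjusted p = 0.208), in the same direction. Without control 3 the brighter probe was called (−0.72, adjusted p = 0.0324).

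Against control 3 alone, the difference of Gpx1 was −0.22. The 2 glutathione peroxidases therefore had differences of opposite sign on these arrays, and for both of them the difference was smallest against control 3. A test of the difference between the 2 genes was not made, since they are measured by different probes.

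Glutathione is made in 2 steps, of which glutamate-cysteine ligase carries out the first and rate-limiting one. Gclc (NM_012815), its catalytic subunit, had a level of −1.24, −0.91 and −2.02 in LIPUS samples 1 to 3, against −1.28, −1.76 and −1.67 in control samples 1 to 3. The LIPUS arrays lay on both sides of the controls. The change was 0.18 ± 0.27 (SE), with a 95% interval from −0.43 to 0.79 (limma adjusted p = 0.742), and 0.28 against control 3 alone. The authors' deposited value table gave the opposite sign, −0.60 (adjusted p = 0.150), so no direction is given for Gclc.

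Gclm, the modifier subunit of the ligase, had 1 probe, and it was above background only on LIPUS 3. Its spot brightness minus local background was 60, −9 and 70 scanner units on LIPUS arrays 1 to 3, where the background limits were 101, 84.6 and 49.6. It was 59, 5 and 44 on control arrays 1 to 3, where the limits were 133.4, 112 and 98.8. No change of Gclm was detectable at this brightness.

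Nqo1 (NM_017000) encodes a quinone reductase and is widely used as a readout of NRF2. Its level was −0.16, 0.02 and −0.33 in LIPUS samples 1 to 3, against 0.25, −0.17 and 0.56 in control samples 1 to 3. The groups overlapped, since control 2 lay below LIPUS 1 and LIPUS 2. The change was −0.37 ± 0.21 (SE), with a 95% interval from −0.85 to 0.10 (limma adjusted p = 0.343). Against control 3 alone it was −0.72.

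Txnrd1 (NM_031614) encodes the thioredoxin reductase of the cytosol. Its brightest probe had a level of 0.80, 0.65 and 1.00 in LIPUS samples 1 to 3, against 0.21, 0.60 and 0.51 in control samples 1 to 3. The groups did not overlap, though LIPUS 2 and control 2 were close. The change was 0.38 ± 0.18 (SE), with a 95% interval from −0.02 to 0.78 (limma adjusted p = 0.250). Against control 3 alone it was 0.31. The other Txnrd1 probes read −0.08 ± 0.19 and −0.22 ± 0.17 (SE), both intervals including 0, and in the authors' deposited value table the probes read 0.62, 0.11 and 0.14, with the brightest first. The further probes of these genes numbered 4, of which the second Fth1 probe was at the scanner limit and could show no change. None of the 4 was called by limma (1 had an unadjusted p under 0.05), where 6.51% of 23260 probes were.

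**Figure D3:**
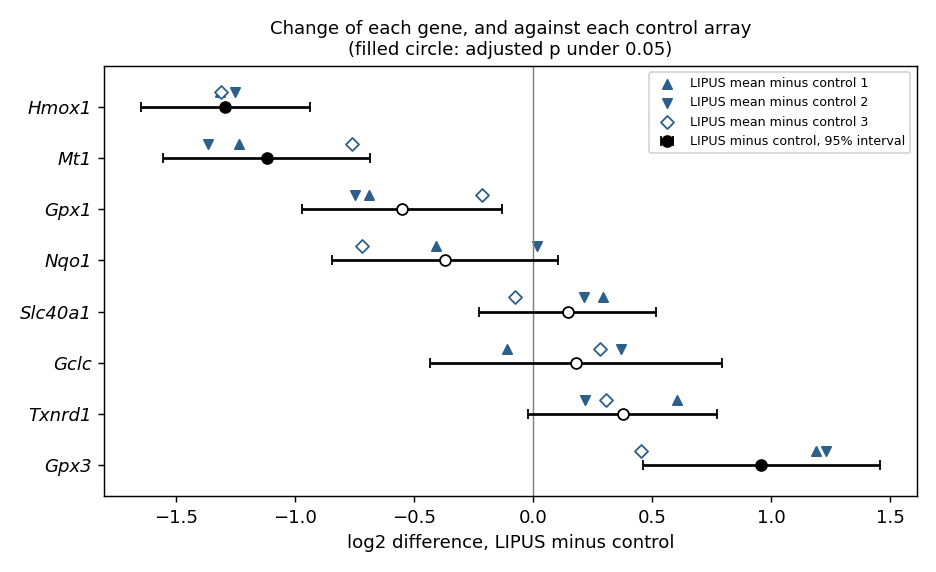
Log2 difference of 8 genes, LIPUS minus control, with its 95% interval from limma (n = 3 arrays a group; filled circles have an adjusted p under 0.05), from the lowest at the top. Blue symbols are the LIPUS mean minus each control array. For Hmox1 the 3 control arrays give −1.31, −1.25 and −1.31, while for Mt1, Gpx1 and Gpx3 the difference is smallest against control 3.

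Fth1 (NM_012848), the heavy chain of ferritin, stores iron in a form that does not generate radicals. Both of its probes were at the scanner limit of 65535 on all 6 arrays, so the spots give no change. The share of pixels at the limit was 60%, 66% and 52% on LIPUS arrays 1 to 3 for the first probe, against 72%, 92% and 70% on the control arrays. For the second probe it was 75%, 73% and 74% on the LIPUS arrays, against 84%, 77% and 80% on the control arrays. For both probes all LIPUS arrays had a smaller share at the limit than all control arrays. These shares are not scaled, and over all gene probes 382, 320 and 351 reached the limit on LIPUS arrays 1 to 3, against 468, 388 and 442 on control arrays 1 to 3.

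In the authors' deposited value table both Fth1 probes had a reading. The first read 6.76, 6.75 and 6.82 in LIPUS samples 1 to 3, against 7.51, 7.21 and 6.99 in control samples 1 to 3. These groups did not overlap, and the difference was −0.46 ± 0.18 (SE) with a 95% interval from −0.90 to −0.03 (limma adjusted p = 0.212). The second read 8.03, 8.13 and 8.20 in LIPUS samples, against 8.31, 8.39 and 8.18 in control samples. These groups overlapped, with a difference of −0.17 ± 0.14 (adjusted p = 0.542). On control 1 the second probe stood at 99.98% of the highest value in the table, so it too was near a limit. Neither probe was called, where 3.67% of 23260 probes were called in that table.

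**Figure D4:**
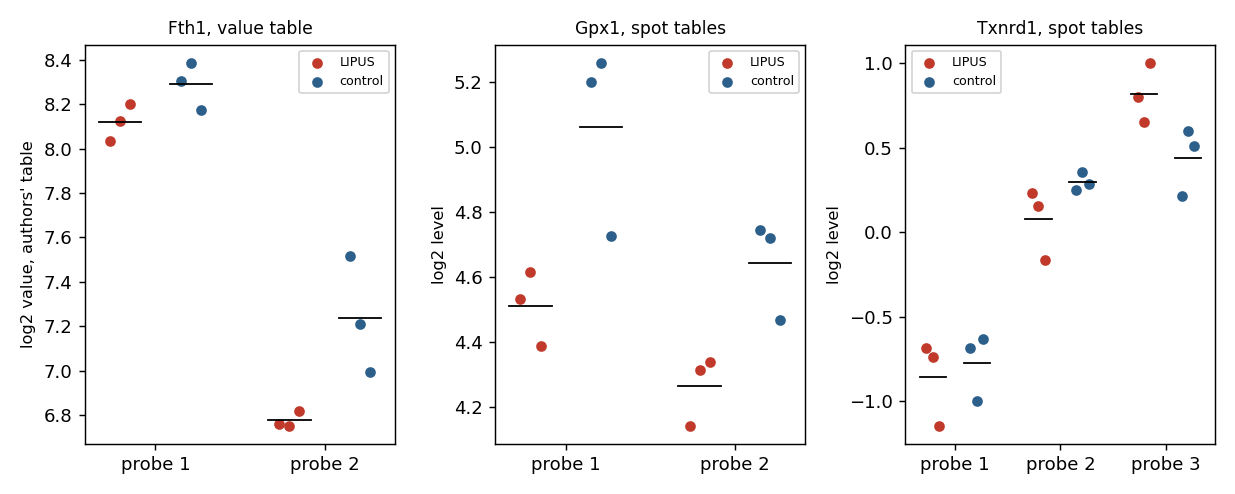
Level on each array by probe for the genes with more than 1 probe (red, LIPUS; blue, control; black lines are group means, n = 3). The left panel holds log2 values of Fth1 from the authors' table, where probe 2 is the first described (−0.46) and probe 1 the second (−0.17). The other panels hold log2 levels of Gpx1 (−0.55 and −0.38) and Txnrd1 (−0.08, −0.22 and 0.38) from the spot tables. Heights of different probes are not comparable.

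Slc40a1 (NM_133315) encodes ferroportin, the known exporter of iron from cells. Its level was 0.77, 0.75 and 0.85 in LIPUS samples 1 to 3, against 0.49, 0.57 and 0.86 in control samples 1 to 3. Control 3 was the highest of all 6 arrays and the groups overlapped. The change was 0.15 ± 0.17 (SE), with a 95% interval from −0.23 to 0.52 (limma adjusted p = 0.650). Against control 3 alone the sign turned (−0.074).

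The rest of the pathways was read from 7 lists of textbook members, which hold 76 further measured genes. Of these 1 was called higher and 4 lower, or 6.58%, close to the 6.63% of all tests. In 4 of the 76 every reading was at the scanner limit, so no change could show. The median change of the 76 was −0.10, or −0.13 without those 4, against 0.03 over all tests. At an unadjusted p under 0.05 there were 20 of the 76, where 22.1% of all tests were.

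The genes of heme synthesis were measured for 5 of 9 and none was called by limma, with 1 of the 5 at an unadjusted p under 0.05 (22.1% over all tests) and a median of −0.26. That one was Cpox, coproporphyrinogen oxidase, at −0.53 (adjusted p = 0.221). Alas1, the first enzyme of heme synthesis outside red cells, read −0.33 (adjusted p = 0.310). In heme breakdown and transport, 7 of 12 genes were measured and Hmox1 was the only one called. The share called was 14.3%, against 6.63% of all tests, and the list median −0.15. Blvra, the biliverdin reductase that acts just after heme oxygenase, read −0.62 ± 0.16 (SE, adjusted p = 0.0550). Hpx, hemopexin, which binds free heme in plasma, read 0.22 (adjusted p = 0.442).

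Of 27 genes of iron uptake, storage and export, 17 were measured, 2 were called lower and 1 higher (17.6%, against 6.63% of all tests). Tf, Fth1 and Ftl1 had only readings at the scanner limit, and the median of the rest was −0.03. Heph, the copper-dependent hephaestin that oxidises iron on export, had a level of 1.73, 1.29 and 1.70 in LIPUS samples, against 2.66, 2.56 and 2.25 in control samples. It fell by 0.91 ± 0.19 (SE, limma adjusted p = 0.0218). Slc11a1, a metal transporter of phagosomes, had a level of 1.54, 1.38 and 1.01 in LIPUS samples, against 2.20, 1.95 and 2.58 in control samples. It fell by 0.93 ± 0.21 (adjusted p = 0.0322).

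Hamp, the peptide hormone hepcidin that blocks ferroportin, had a level of −0.19, −0.30 and −0.14 in LIPUS samples, against −1.35, −0.68 and −1.11 in control samples. It rose by 0.84 ± 0.20 (SE, limma adjusted p = 0.0347). In each of these 3 genes, named because they were called, the groups did not overlap, as in 27.2% of all tests. Their calls depended on which arrays were in the fit. Heph lost its call without control 1 or 2 or LIPUS 2 or 3 (adjusted p up to 0.0917). Slc11a1 and Hamp lost theirs when any array other than control 2 was left out (adjusted p up to 0.112 and 0.127). Against control 3 alone, and with slide as a block, the differences were −0.67 for Heph, −1.27 for Slc11a1 and 0.90 for Hamp, and with the block none of the 3 was called (adjusted p = 0.228, 0.0734 and 0.182 in that order). In the authors' deposited value table they were −0.83 (adjusted p = 0.131), −0.47 (0.265) and 0.27 (0.667), and with spike-in scaling Hamp read 0.48 (adjusted p = 0.158). Ireb2, an iron-sensing RNA-binding protein, read 0.61 (adjusted p = 0.0748), and Cybrd1, a ferric reductase, −0.70 (adjusted p = 0.0861).

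Among metallothionein and zinc genes 4 of 12 were measured, with 2 called lower (50%, against 3.74% of all tests) and a median of −0.52. Beside Mt1 this was Slc30a1, the zinc exporter of the cell surface, which like Mt1 is a known target of the metal-sensing factor MTF-1. Its level was −1.36, −1.08 and −1.41 in LIPUS samples, against −0.58, −0.59 and −0.28 in control samples. Slc30a1 fell by 0.80 ± 0.17 (SE, limma adjusted p = 0.0261), with no overlap between the groups, as in 27.2% of all tests. Its call ended without control 1 or 2 or LIPUS 1 or 3 (adjusted p up to 0.0987), with slide as a block (−1.004, adjusted p = 0.0792, the same difference as against control 3 alone) and in the authors' deposited value table (−1.21, adjusted p = 0.0518). The zinc transporters Slc30a4 and Slc39a8 read 0.74 (adjusted p = 0.120) and −0.24 (adjusted p = 0.619).

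In the list of glutathione synthesis and peroxidases 9 of 19 genes were measured, with Gpx3 alone called. The share called was 11.1%, against 6.63% of all tests, and the list median 0.10. Glrx, glutaredoxin, read −0.59 (adjusted p = 0.0739). Of 21 genes of the thioredoxin system, peroxiredoxins, superoxide dismutases and catalase, 19 were measured and none was called by limma, with 1 of the 19 at an unadjusted p under 0.05, against the same 22.1%. Their median was −0.09 without Txn1, which had only readings at the scanner limit. Prdx3, the peroxiredoxin of mitochondria, read −0.59 (adjusted p = 0.0730), and Txnip, an inhibitor of thioredoxin, −0.43 (adjusted p = 0.235).

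Of 33 regulators and targets of NRF2, 27 were measured, 2 were called lower (Hmox1 and Gstp1) and none higher. The calls make up 7.41%, close to the 6.63% of all tests. The list median was −0.07 without Tkt, which had only readings at the scanner limit. Gstp1 (NM_012577), a glutathione transferase, had a level of 4.46, 4.43 and 4.42 in LIPUS samples, against 5.89, 5.82 and 5.80 in control samples. Each group was tight and the groups were far apart. Gstp1 fell by 1.40 ± 0.15 (SE), which is 2.64-fold lower (limma adjusted p = 0.00105), and this call, like that of Hmox1, held with each array left out in turn and with slide as a block (adjusted p = 0.0313 for Gstp1 and 0.0384 for Hmox1). Among other targets, Cbr1, a carbonyl reductase, read 0.65 (adjusted p = 0.111) and Aox1, aldehyde oxidase, −0.44 (adjusted p = 0.208).

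**Figure D5:**
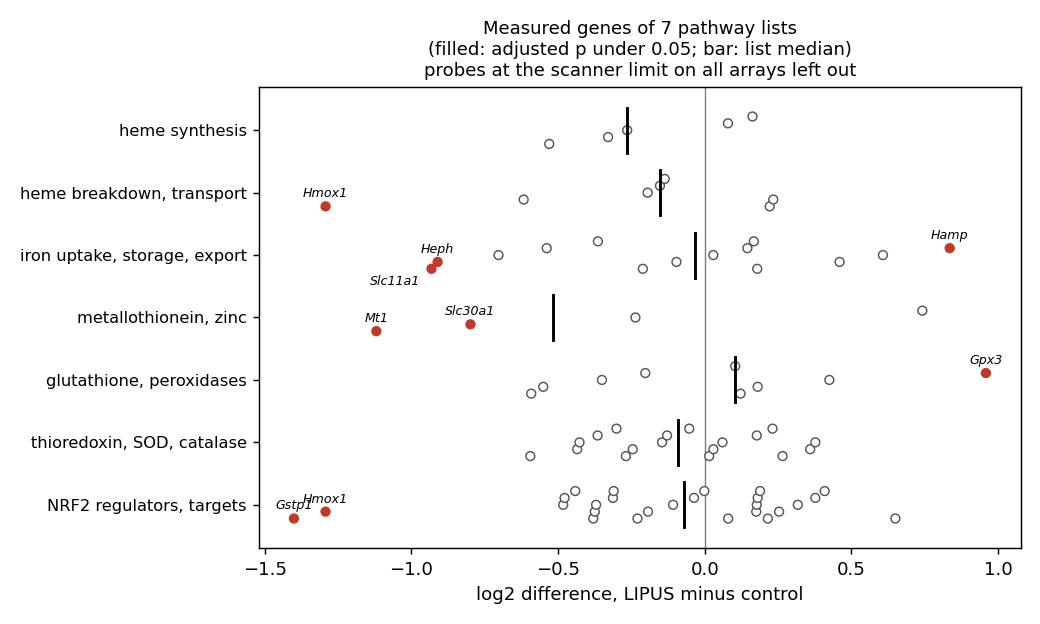
Log2 difference, LIPUS minus control, of every measured gene in the 7 lists, leaving out probes with all 6 readings at the scanner limit (points are spread vertically for view; n = 3 arrays a group). Filled points are named and have an adjusted p under 0.05, and black bars are list medians, from −0.52 for metallothionein and zinc to 0.10 for glutathione and peroxidases.

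Markers of cell types were read on the same arrays, and some lists held called genes while others held few or none. Of 20 macrophage markers 16 were measured, of which 9 were called lower in LIPUS samples, 1 higher and 6 neither. That is 62.5% called, against 6.63% of all tests. Of the 6, Cd68, Tyrobp, C1qa, Lyz2 and C1qb were at the scanner limit on 3 or more arrays, so their change could not be fully read. The summed linear level of the 16 (2 to the power of the log2 level) was 462.5 to 497.4 in LIPUS samples, against 557.5 to 661.9 in control samples. The 11 that never reached the scanner limit had a sum of 71.9 to 88.9 in LIPUS samples, against 227.0 to 245.3 in control samples. Clec10a, a lectin receptor of macrophages, was at −2.99 ± 0.18 (SE), and the Fc receptor genes Fcgr2b and Fcgr3a at −2.43 ± 0.20 and −1.58 ± 0.16 (all 3 called). The marker called higher was Mpeg1, at 0.77 ± 0.18 (limma adjusted p = 0.0308). Its probe was dim, above background on all 3 LIPUS arrays and on no control array. Macrophages are known to express Hmox1 and Slc11a1 highly. The part of macrophages in the falls of Hmox1, Mt1, Heph, Slc11a1 and Gstp1 was not tested.

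Of 10 osteoblast markers 8 were measured, 3 were called higher (37.5%, against 2.89% of all tests) and none lower. Dmp1, a matrix protein of osteocytes, rose by 1.59 ± 0.15 and Phex by 1.29 ± 0.20 (SE), while every Bglap and Spp1 reading was at the scanner limit. The 5 osteoblast markers that never reached the limit summed to 83.3 to 95.7 in LIPUS samples, against 55.0 to 57.6 in control samples, and their part in the rise of Gpx3 and Hamp was not tested. Of 10 endothelial markers 4 were measured and 3 were called lower (75%, against 3.74% of all tests), while Pecam1 was above background on no array. Those called were Esam (−1.80 ± 0.22), Ramp2 (−1.23 ± 0.20) and Icam2 (−1.05 ± 0.19), the last of which lost its call without LIPUS 1 (adjusted p = 0.0555). The endothelial sum was 2.16 to 2.63 in LIPUS samples, against 5.72 to 6.32 in control samples.

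Red cell precursors, which make most of the heme of marrow, left little trace. Of 13 erythroid markers only Epor was measured, at 0.19 (adjusted p = 0.631). Hbb and Hbb-b1 were above background on none of the 6 arrays, and Alas2, the heme synthesis enzyme of red cells, on 1 control array. Of 8 adipocyte markers 6 were measured and 1, Cidec, was called higher (1.09 ± 0.18), or 16.7%, against 2.89% of all tests. Of 10 neutrophil and mast cell markers 4 were measured, with Cma1 called lower (−1.18 ± 0.18) and S100a8 higher (0.99 ± 0.20). The share called was 50%, against 6.63% of all tests. Tpsb2 (0.06, limma adjusted p = 0.879) and Kit (−0.15, adjusted p = 0.753) were not called, and S100a9 was above background on no array. The call of S100a8 ended when LIPUS 1, LIPUS 2 or control 1 was left out, with the highest adjusted p at 0.0895.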

How the data were processed

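The deposited spot tables hold spot and local background brightness as intensity, in whole numbers up to 65535 and not normalized, and, in percent, how many of a spot's pixels reached that limit, per the file headers. The authors' value table holds log2 values with a 75th percentile of 0 in each column. How it was made is not given in the sources used here. Neither the processed signal nor the background flag of Agilent's software was in the spot tables.

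Intensity was corrected with limma 3.58.1 (R 4.3.3; normexp, offset 50), put on the log2 scale, averaged over the spots of a probe and centred on each array's 75th percentile. Kept were 23260 of 41012 gene probes, those that on at least 3 of 6 arrays exceeded the 95th percentile of 153 negative controls. RefSeq accessions gave symbols to 10768 probes (GRCr8 table, names only), and a gene was read from its brightest probe. Groups were compared with lmFit and eBayes, two-sided, with group as the only term. The procedure was checked on simulated data. The number of arrays limits the precision.

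The 10 genes, the 7 pathway lists and the 6 marker lists were chosen with earlier results of these data known, so no test over a list was made. Named are all 10 genes, up to 4 called and 2 uncalled genes of each pathway list, and up to 3 of each marker list by p, of which not all are printed. Some other genes are named for readings at the scanner limit or under background, and Mpeg1 as the macrophage marker called higher. Tpsb2 is named as the remaining measured marker of its list. Deviations of samples with the same replicate number correlated at 0.00, 0.01 and −0.01, so no pairing by number was seen. With 3 samples a group and their origin not given, these values cannot exclude a pairing. Alternatives covered background correction, scaling, filter, probe choice, value table, slide, replicate number, variance model and leaving out each array.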

Additional observations from a re-analysis of the deposited data

How the results depend on the processing

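The number of genes called was 1449 and that of the 10 genes 3. Counts of all genes here include unnamed probes, since 5697 of the 21847 tests had a gene symbol. All genes called became 612 (and 1 of the 10) with plain background subtraction, 655 without a filter on dim probes, 805 with the authors' value table, 3719 with spike-in scaling (5.3% of them higher, against 43.6%) and 2360 with a variance trend. With median centring 32.3% of 1462 calls were higher. Spike-in scaling moved the median of all genes by −0.35. Leaving out 1 array gave 642 to 2168 genes and 2 to 4 of the 10. A fixed block for the inferred slide left 282 genes, 251 of them shared with the 1449, and 1 of the 10 (Hmox1). Within the inferred slide that holds control 3 and the LIPUS arrays, limma called 0 genes (3339 at an unadjusted p under 0.05) and 0 of the 10 (3 at that p), with control 3 assumed to vary like the LIPUS arrays.

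Hmox1 kept its call in 19 of 20 alternatives, Mt1 in 17 and Gpx3 in 6. Mt1 lost it with plain background subtraction (adjusted p = 0.0566), with slide as a fixed block and within the slide. Gpx3 also lost it with median centring (0.90, adjusted p = 0.0521), with spike-in scaling (0.61, 0.0823) and with slide as a random block (0.83, 0.0759). Gpx1 was called with spike-in scaling (−0.90) and a variance trend (−0.55, adjusted p = 0.0195), and Nqo1 with spike-in scaling (−0.72, adjusted p = 0.0374). Replicate number as a block left 1175 genes called and 3 of the 10. It ended the calls of Slc11a1 (adjusted p = 0.0504) and Hamp (0.0508), and left Fth1 in the value table at −0.46 (adjusted p = 0.320). Without 1 array Fth1 there read −0.59 to −0.33. None of 4 further probes of the 10 genes (1 at the scanner limit) was called by limma (1 at an unadjusted p under 0.05), nor with the value table, either block or any array left out.

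Signs that turned were all of genes not called. With spike-in scaling these were Gclc (−0.17), Fth1 (−0.11), Slc40a1 (−0.21), Hpx (−0.13), Epor (−0.16), Fabp4 (−0.11) and Cfd (−0.11). With the value table they were Gclc (−0.60), Fth1 (−0.46), Epor (−0.56) and Cfd (−0.77). With slide as a block and within the slide they were Slc40a1 (−0.074) and Slc39a8 (0.33). Kit turned without control 3 (−0.42 to 0.030 over the arrays left out), Epor without LIPUS 1 (−0.021 to 0.33) and Gclc without LIPUS 2 (−0.058 to 0.49). For all of these the cause was not tested. Of the other values of single genes and list counts, 894 stayed, 100 lost a call, 30 gained one and 76 counts moved by over 1.5 times or to or from 0. Signal limits Gclm, which was under background on 5 of 6 arrays, and Fth1, which was at the scanner limit on all 6.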
